A study of Mus musculus with 8 samples.

Results

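The genes of respiratory complex I were followed in mouse hematopoietic stem cells exposed to eltrombopag or to its vehicle. Members were all genes of the platform annotation whose symbol begins with Ndufa, Ndufb, Ndufc, Ndufs or Ndufv and holds a digit, together with Ndufab1, and without the assembly factors that carry the prefix Ndufaf. This rule took in 38 of the 19505 genes with a named probe set, and each of the 38 had 1 probe set. It used symbols and no measured value. Ndufb1, which the rule would also name, was not analysed here.

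Complex I takes electrons from NADH and passes them along a flavin and a chain of iron-sulfur clusters to ubiquinone, while it pumps protons across the inner mitochondrial membrane. It is shaped like an L. A matrix arm holds the NADH-binding N module and the ubiquinone-reducing Q module, and a membrane arm holds the proton pumps, whose central subunits are encoded by mitochondrial DNA. Around the catalytic core sit many accessory subunits that stabilise the enzyme. Hematopoietic stem cells are known for low mitochondrial respiration at rest and for a rise in respiration when they are activated.

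The cells were bone marrow cells of mice aged 6 to 10 weeks, sorted without lineage markers or CD48 and with Sca-1, c-Kit and CD150. Both groups were cultured with stem cell factor (100 ng/ml) and Primocin (200 µg/ml), an antibiotic mixture. Of the groups, 1 received eltrombopag (10 µg/ml) for 16 h and the other the vehicle, sterile water. Eltrombopag is a drug taken by mouth to raise platelet counts, and it also binds iron. There were 4 arrays with each treatment, with the numbers 1 to 4 in the titles. The labels name them biological replicates and give no strain or genotype, nor the animals behind each array. The spread behind every p-value here is thus that between arrays, which may be technical in part. The question was which transcripts differ after exposure to the drug, and here it is put to the members.

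Of the genes used in the sort, Kit stood at 12.8 to 12.9 on all 8 arrays in log2 units and Slamf1, which encodes CD150, at 6.19 to 7.75. Cd48 stood at 5.66 to 6.55, and Ly6a, which encodes Sca-1, was not analysed here. No summed marker level separated the groups. For neutrophil and monocyte genes the sum lay at 9.73 to 9.92 with vehicle and 9.76 to 9.93 with eltrombopag, for erythroid genes at 8.67 to 9.38 and 8.59 to 9.73, and for megakaryocyte genes at 10.4 to 10.9 in both groups. The sum lay at 6.96 to 7.20 and 6.999 to 7.43 for B cell genes, at 6.40 to 6.73 and 6.46 to 6.70 for T and NK cell genes, and at 9.70 to 10.0 and 9.68 to 9.82 for stromal and endothelial genes. The first principal component of all genes (25.5% of the variance) parted the arrays by number, with scores from -18.8 to -11.0 for numbers 1 and 2 and from 14.0 to 15.6 for numbers 3 and 4, whatever the treatment. The Y-linked Uty stood at 7.71 and 6.98 in the arrays numbered 3 and at 3.02 to 3.31 in the other 6. Kdm5d, also Y-linked, stood at 7.08 and 6.36 in the arrays numbered 3 and at 3.37 to 3.81 in the rest. Only the arrays numbered 3 thus showed male cells. Values within numbers 1 and 2 and within numbers 3 and 4, and without both arrays numbered 3, are therefore given for the members together and for the genes whose differences were largest or depended most on them.

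The members' promoters are described first, because the genes are transcribed separately and YY1, NRF1 and ETS factors such as GABP are known regulators of genes of the respiratory chain. RefSeq windows (GRCm38.p6) from 250 bases before to 50 bases after the annotated start were matched for 34 of the 38 members. Ndufa2, Ndufa4l2, Ndufb9 and Ndufs1 had no entry. The letters AAGATGGC, the core of the YY1 element, were searched on both strands and occurred in 7 of 34 members (20.6%), against 3.19% of the 27025 genes in the table. In all 7 the match lay on the gene's own strand within the 50 bases after the start, where 1.04% of all genes had it. These letters were kept after their share had been seen: of 14 motifs of under 10 letters scanned, some of which overlap, they had the highest share in members relative to all genes (a ratio of 6.45, with 0.716 to 5.93 for the others), so the share is a description and supports nothing. It began 23 to 39 bases into the transcript, counting the first transcribed base as 1, and it contains the letters of a start codon. The 7 stretches are shown to let their shared letters be compared. Each line holds 30 bases, 5′ to 3′ on the gene's strand, with the match in capitals:
Ndufa3, chr7:3617384-3617413, plus strand: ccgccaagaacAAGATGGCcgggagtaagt
Ndufa9, chr6:126849097-126849126, minus strand: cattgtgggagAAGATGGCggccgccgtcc
Ndufb8, chr19:44555393-44555422, minus strand: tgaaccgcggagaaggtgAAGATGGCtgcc
Ndufc1, chr3:51408915-51408944, minus strand: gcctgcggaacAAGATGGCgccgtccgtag
Ndufs4, chr13:114388045-114388074, minus strand: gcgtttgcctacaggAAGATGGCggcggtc
Ndufs6, chr13:73328433-73328462, minus strand: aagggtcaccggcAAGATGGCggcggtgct
Ndufs7, chr10:80249462-80249491, plus strand: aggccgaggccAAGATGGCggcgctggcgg

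The letters CCGGAAG, an ETS core searched on both strands, occurred in 4 of 34 members (11.8%) and in 9.93% of all genes in the table. They were found in the windows of Ndufb6, Ndufb7, Ndufs3 and Ndufs8, and on both strands of that of Ndufs3. The letters GCGCATGC of the NRF1 element, on both strands, occurred in 3 members (8.82%) and in 3.05% of all genes. The members were Ndufa6, Ndufa8 and Ndufa11. In Ndufa11 the match was present on both strands, overlapping in a palindrome. The 250 bases before its start (chr17:56717512-56717761, plus strand) are shown because Ndufa11 was also among the members with a higher value in every pair of arrays. The overlapping matches, in capitals, begin 60 bases before the start:
Ndufa11: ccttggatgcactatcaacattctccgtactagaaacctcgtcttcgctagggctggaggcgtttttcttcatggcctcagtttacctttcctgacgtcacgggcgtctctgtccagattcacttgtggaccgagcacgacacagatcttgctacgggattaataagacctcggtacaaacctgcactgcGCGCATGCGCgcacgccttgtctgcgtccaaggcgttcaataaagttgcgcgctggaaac
For comparison, the YY1 letters occurred in 3 of 35 genes of complexes II to V (8.57%) and in 12 of 67 genes of mitochondrial ribosomal proteins (17.9%), and the ETS letters in 13 of 35 (37.1%) and 25 of 67 (37.3%). The NRF1 letters occurred in 7 of 35 and 8 of 67. The difference in these shares between the gene groups was not tested. A match of letters does not show that the factor binds.

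None of the complex I genes passed. At an adjusted p under 0.05 limma called 0 of 38 between the treatments, against 0% of all 19505 genes, and the smallest adjusted p of a member was 0.99978. At an unadjusted p under 0.05 there were also 0 of 38, where 1.74% of all genes were higher and 1.59% lower. The groups overlapped in all 38 members. Among all genes, 1.12% lay entirely above the vehicle values and 1% entirely below. In bulk samples such as these, fewer cells of a type and less RNA per cell cannot be told apart.

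Small differences in one direction were nevertheless common. Eltrombopag minus vehicle, the log2 difference was above 0 for 32 of 38 members (84.2%), against 52.3% of all genes and 50.3% of genes with a mean above the median gene. The count was 29 of 38 when the arrays were shifted to equal medians. The median over the members was 0.049, which is 1.03-fold, against 0.0071 over all genes. It depended on single arrays, at 0.077 without vehicle array 1 and 0.030 without vehicle array 2. Gene by gene, leaving out 1 array moved the difference by over 1.5 times in 34 of 38 members, and across 0 in 17 of them. The 4 others were Ndufa10, Ndufb4b, Ndufb9 and Ndufs1. The members were chosen with earlier results of these data known, and no test was made of the set.

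The members varied little between arrays, and their differences were bounded closely. The median pooled SD within groups was 0.12 for the members and 0.18 for all genes, and 34 of 38 members lay under the latter. Ndufa10, an accessory subunit with a nucleoside kinase fold, had the smallest at 0.051, and Ndufs1 the largest at 0.25. The 95% interval of the difference lay within a 1.3-fold change in either direction for 34 of 38 members (89.5%), against 51.3% of all genes. This bound was chosen after the intervals had been seen. It lay within a 1.5-fold change for 37 of 38 (97.4%), against 88% of all genes. Ndufs1 was the exception. Complexes II to V were much alike, with a median SD of 0.105, 88.9% of genes within 1.3-fold and 97.8% within 1.5-fold. For mitochondrial ribosomal protein genes the values were 0.15, 72.4% and 98.7%, and for genes above the median gene 0.17, 57.1% and 89.4%. The narrow spread was thus not particular to complex I, and the differences between these groups of genes were not tested.

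**Figure D1:**
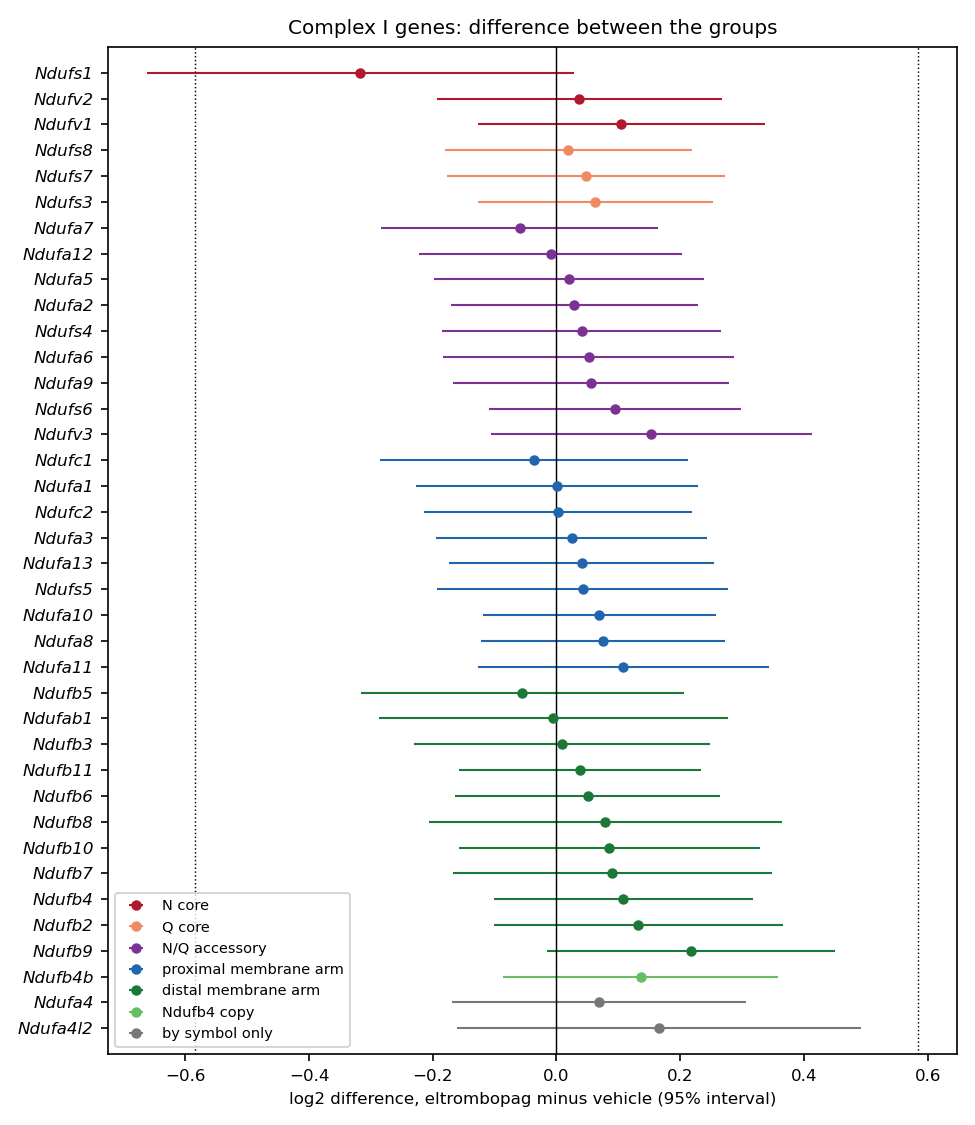
Log2 difference (eltrombopag minus vehicle, horizontal axis) of each of the 38 genes, with its 95% interval from limma, 4 arrays per group; colours mark the part of the enzyme and dotted lines a 1.5-fold change. Points lie above 0 for 32 genes, every interval includes 0, and that of Ndufs1 alone crosses a dotted line.

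In the N module, the core subunit genes differed in sign. Ndufs1 encodes the largest subunit, which carries several of the iron-sulfur clusters between flavin and quinone. Its log2 values were 7.63, 7.35, 7.92 and 8.03 in vehicle arrays 1 to 4 and 7.36, 7.65, 7.44 and 7.22 in eltrombopag arrays 1 to 4. Vehicle arrays 3 and 4 stood above all others, eltrombopag array 4 was the lowest, and the groups overlapped. The group means were 7.73 ± 0.30 and 7.42 ± 0.18 (SD, n = 4 each), and the difference of -0.32 (SE 0.16, interval -0.66 to 0.03) was the most negative of the members. It was 0.011 within numbers 1 and 2 and -0.65 within numbers 3 and 4, where it did not pass either (adjusted p 0.997 in limma), and -0.26 without both arrays numbered 3.

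Ndufv1 encodes the subunit that binds NADH and the flavin. Its log2 values were 10.32, 10.30, 10.15 and 10.45 with vehicle and 10.37, 10.29, 10.59 and 10.38 with eltrombopag. Eltrombopag array 3 was the highest and vehicle array 3 the lowest, so the difference of 0.10 (SE 0.10) rested on number 3. Without both arrays of that number it was -0.0068. Ndufv2, which carries a further iron-sulfur cluster beside Ndufv1, had log2 values of 10.02, 9.84, 9.75 and 9.67 with vehicle and 9.86, 9.90, 9.73 and 9.93 with eltrombopag. Vehicle array 1 was the highest and vehicle array 4 the lowest, and the difference of 0.037 (SE 0.10) was smaller than the SD of 0.15 within the vehicle group.

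In the Q module, the 3 measured core genes varied little. Ndufs3, which encodes a structural core subunit next to the quinone site, had log2 values of 11.37, 11.54, 11.45 and 11.47 with vehicle and 11.54, 11.49, 11.49 and 11.56 with eltrombopag. Only vehicle array 1 stood apart to the low side, and the difference was 0.063 (interval -0.13 to 0.25). Ndufs7 holds the last cluster before the quinone. Its values were 8.76, 8.60, 8.77 and 8.51 with vehicle and 8.76, 8.73, 8.79 and 8.56 with eltrombopag, a difference of 0.047 (interval -0.18 to 0.27). The arrays numbered 4 were the lowest of their group in both. Ndufs8, which carries a pair of clusters in the same chain, had values of 10.12, 9.92, 10.03 and 10.05 with vehicle and 10.10, 9.97, 10.02 and 10.10 with eltrombopag. Here number 2 was the lowest in both groups, and the difference was 0.019 (interval -0.18 to 0.22).

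**Figure D2:**
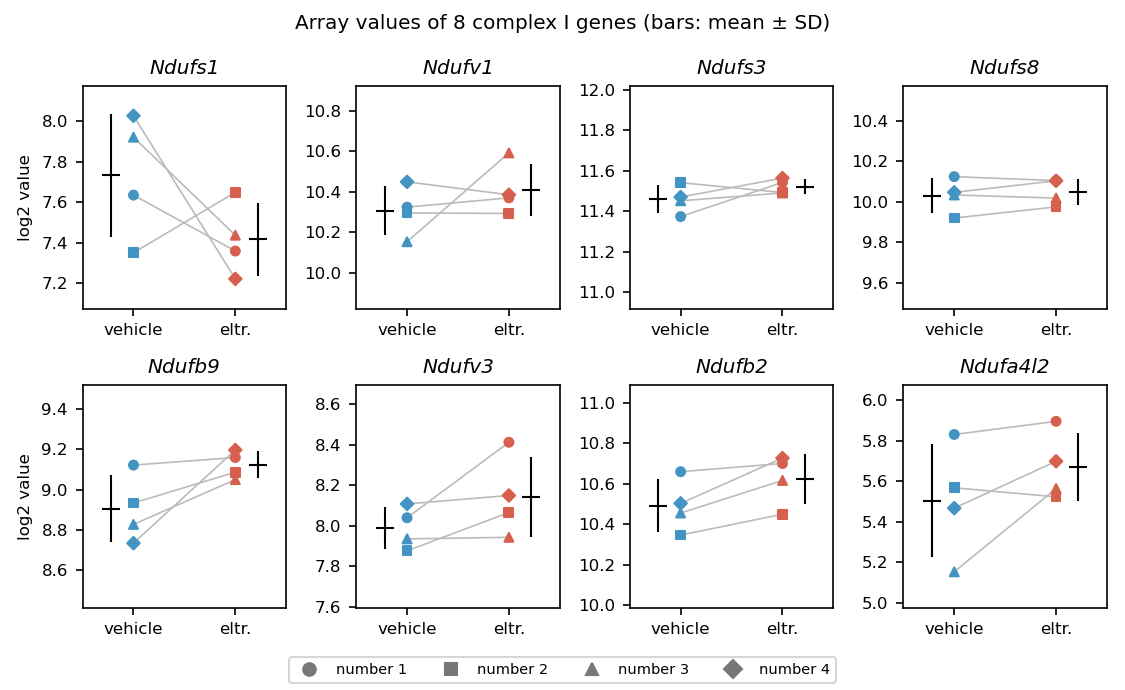
Log2 values of 8 genes on each array (vertical axis, the same span of log2 units in every panel), vehicle at left and eltrombopag at right; symbols mark the array number, grey lines join arrays of the same number, and bars give the mean ± SD of 4 arrays. Ndufs1 is lower with eltrombopag for numbers 1, 3 and 4 and higher for number 2, while the lines of Ndufb9 slope upward in all 4 pairs and those of Ndufs8 are nearly level.

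The accessory genes of the N and Q modules were above 0 in 7 of 9 cases, with a median difference of 0.041. Ndufv3, a small subunit at the NADH end, had log2 values of 8.04, 7.88, 7.94 and 8.11 with vehicle and 8.41, 8.07, 7.94 and 8.15 with eltrombopag. Eltrombopag array 1 was the highest, and the difference was 0.15 (SE 0.12). It was 0.063 without that array and 0.22 without eltrombopag array 3, and it stood at 0.28 within numbers 1 and 2 against 0.025 within numbers 3 and 4. Ndufs6, a zinc-binding subunit, differed by 0.094 and Ndufs4, a subunit needed for a stable N module whose loss in mice models Leigh syndrome, by 0.041. Ndufa9, a nucleotide-binding subunit at the junction with the membrane arm, differed by 0.056 and Ndufa6, which belongs to the LYR proteins and anchors an acyl carrier protein, by 0.052. Ndufa2, with a thioredoxin-like fold, differed by 0.028 and Ndufa5 by 0.020. On the other side of 0 stood Ndufa12, a relative of the assembly factor Ndufaf2, at -0.0093 and Ndufa7 at -0.059. For Ndufa7 the log2 values were 8.37, 8.42, 8.29 and 8.24 with vehicle and 8.39, 8.22, 8.10 and 8.38 with eltrombopag. Numbers 2 and 3 were lower with eltrombopag and numbers 1 and 4 were higher.

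Of the accessory genes in the proximal membrane arm, 8 of 9 were above 0, with a median difference of 0.040. The largest was 0.11 (SE 0.11) for Ndufa11, which resembles the translocase protein TIM17. Its log2 values were 9.10, 8.87, 8.95 and 9.08 with vehicle and 9.24, 8.91, 9.08 and 9.21 with eltrombopag. Within each group number 2 was the lowest and number 1 the highest, so the spread between numbers was larger than the step between groups. The difference was 0.065 without vehicle array 2 and 0.17 without eltrombopag array 2. Ndufa8 and Ndufs5, subunits of the intermembrane space held by disulfide bonds, differed by 0.075 and 0.042. Ndufa10 differed by 0.069, Ndufa13, also known as GRIM-19, by 0.040 and Ndufa3 by 0.024. Ndufc2 and the X-linked Ndufa1 differed by 0.0025 and 0.00012, and their sign turned when the arrays were set to equal medians. Ndufc1 was at -0.036.

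In the distal membrane arm 9 of 11 genes were above 0, with a median of 0.079. Ndufb9, a LYR protein at the far end of the arm that holds an acyl carrier protein, had the largest positive difference of all members. Its log2 values were 9.12, 8.93, 8.83 and 8.73 with vehicle and 9.16, 9.09, 9.05 and 9.20 with eltrombopag. Only vehicle array 1 reached into the eltrombopag range. The means were 8.90 ± 0.17 and 9.12 ± 0.067 (SD, n = 4 each), and the difference was 0.22 (SE 0.11, interval -0.015 to 0.45). The steps were 0.037, 0.15, 0.22 and 0.46 in pairs 1 to 4, which gave 0.095 within numbers 1 and 2 and 0.34 within numbers 3 and 4. Ndufb2 had values of 10.66, 10.35, 10.45 and 10.50 with vehicle and 10.70, 10.45, 10.62 and 10.73 with eltrombopag. Its order by number was nearly the same in both groups, with number 2 the lowest, and the difference was 0.13 (SE 0.11), or 0.084 without vehicle array 2.

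Ndufb4 and Ndufb4b were the only pair of members named as copies of each other. Ndufb4 had log2 values of 11.07, 11.07, 10.93 and 11.00 with vehicle and 11.18, 11.19, 10.96 and 11.18 with eltrombopag, a difference of 0.11 (SE 0.095), or 0.16 without eltrombopag array 3. Ndufb4b had 10.38, 10.29, 10.16 and 10.27 with vehicle and 10.52, 10.43, 10.22 and 10.46 with eltrombopag, a difference of 0.14 (SE 0.10). In both genes number 3 was the lowest of each group. Whether their probe sets tell the transcripts apart was not tested, so they may not count as separate members. Of the remaining distal genes, the differences were 0.090 for the disulfide-bonded Ndufb7 and 0.086 for the likewise disulfide-bonded Ndufb10, 0.079 for Ndufb8, 0.051 for Ndufb6, 0.038 for the X-linked Ndufb11 and 0.0093 for Ndufb3. Single arrays weighed heavily here: Ndufb7 was at 0.021 without vehicle array 2, Ndufb10 at 0.0099 without vehicle array 3 and Ndufb6 at 0.020 without vehicle array 3. Ndufb8 differed by 0.28 within numbers 1 and 2 and by -0.12 within numbers 3 and 4. Ndufab1, the mitochondrial acyl carrier protein that also serves fatty acid synthesis, was at -0.0052. Ndufb5 was at -0.055, with log2 values of 9.95, 9.82, 9.69 and 9.49 for vehicle and 9.75, 9.69, 9.52 and 9.77 for eltrombopag. It was lower with eltrombopag in pairs 1 to 3 and higher in pair 4.

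The symbols also brought in genes that are not complex I subunits today. Ndufa4 encodes a protein now assigned to cytochrome c oxidase, which is complex IV. Its log2 values were 11.21, 10.88, 11.07 and 11.17 with vehicle and 11.12, 11.06, 11.11 and 11.32 with eltrombopag, a difference of 0.069 (SE 0.11). Vehicle array 2 was the lowest, and without it the difference was 0.00022. Ndufa4l2, its paralog, is known as a target of hypoxia-inducible factors that lowers complex I activity. Its values were 5.83, 5.57, 5.15 and 5.47 with vehicle and 5.90, 5.52, 5.56 and 5.70 with eltrombopag, a difference of 0.17 (SE 0.15). It was 0.049 without vehicle array 3 and 0.27 without vehicle array 1, and 0.010 within numbers 1 and 2 against 0.32 within numbers 3 and 4. Vehicle array 3 was the lowest, number 1 was the highest in each group, and this was the only member whose mean lay under the median gene. Without these genes and Ndufb4b, 29 of 35 members were above 0, with a median of 0.042.

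Taken by pair, 8 members were higher with eltrombopag in 4 of 4 pairs, which is 21.1% of members against 6.73% of all genes. The same held for 11 of 76 mitochondrial ribosomal protein genes (14.5%) and 3 of 45 genes of complexes II to V (6.67%), and the difference in these shares was not tested. They were Ndufa11, Ndufb2, Ndufb4, Ndufb4b, Ndufb7, Ndufb9, Ndufs6 and Ndufv3. A further 14 were higher in 3 pairs, 13 in 2 and 3 in 1 pair, and 0 were lower in all 4, against 5.87% of all genes. Pair 4 carried most of the shift, though its 2 arrays correlated less with each other (0.142) than each did with an array numbered 3 (0.171 and 0.168). In it 33 of 38 members were higher (49.7% of all genes), with a median step of 0.12. Pairs 1, 2 and 3 had 23, 24 and 23 of 38 higher (50.7%, 51.2% and 53.2% of all genes), with medians of 0.039, 0.042 and 0.013. Within numbers 1 and 2 there were 27 of 38 members above 0 with a median of 0.037, and within numbers 3 and 4 there were 32 with a median of 0.068. Without both arrays numbered 3 there were 31, with a median of 0.058.

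Array by array, the members shared an order of arrays that did not part the treatments. Each value was set against the gene's own mean over the 8 arrays. In vehicle array 1, 29 of 38 members lay above their mean, in eltrombopag array 1 there were 36, and in eltrombopag array 4 there were 30. In the other 5 arrays the count was 8, 7 and 11 (vehicle arrays 2 to 4) and 15 and 9 (eltrombopag arrays 2 and 3). Over all genes the share above the mean ran from 46.4% to 54.2% in the 8 arrays. The high arrays thus held 1 with vehicle and 2 with eltrombopag, and both arrays numbered 1 were among them. Within each number the count was higher with eltrombopag than with vehicle, at 36 and 29, 15 and 8, 9 and 7, and 30 and 11 for numbers 1 to 4. Over all genes the share was higher with eltrombopag for numbers 1 to 3 and lower for number 4.

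**Figure D3:**
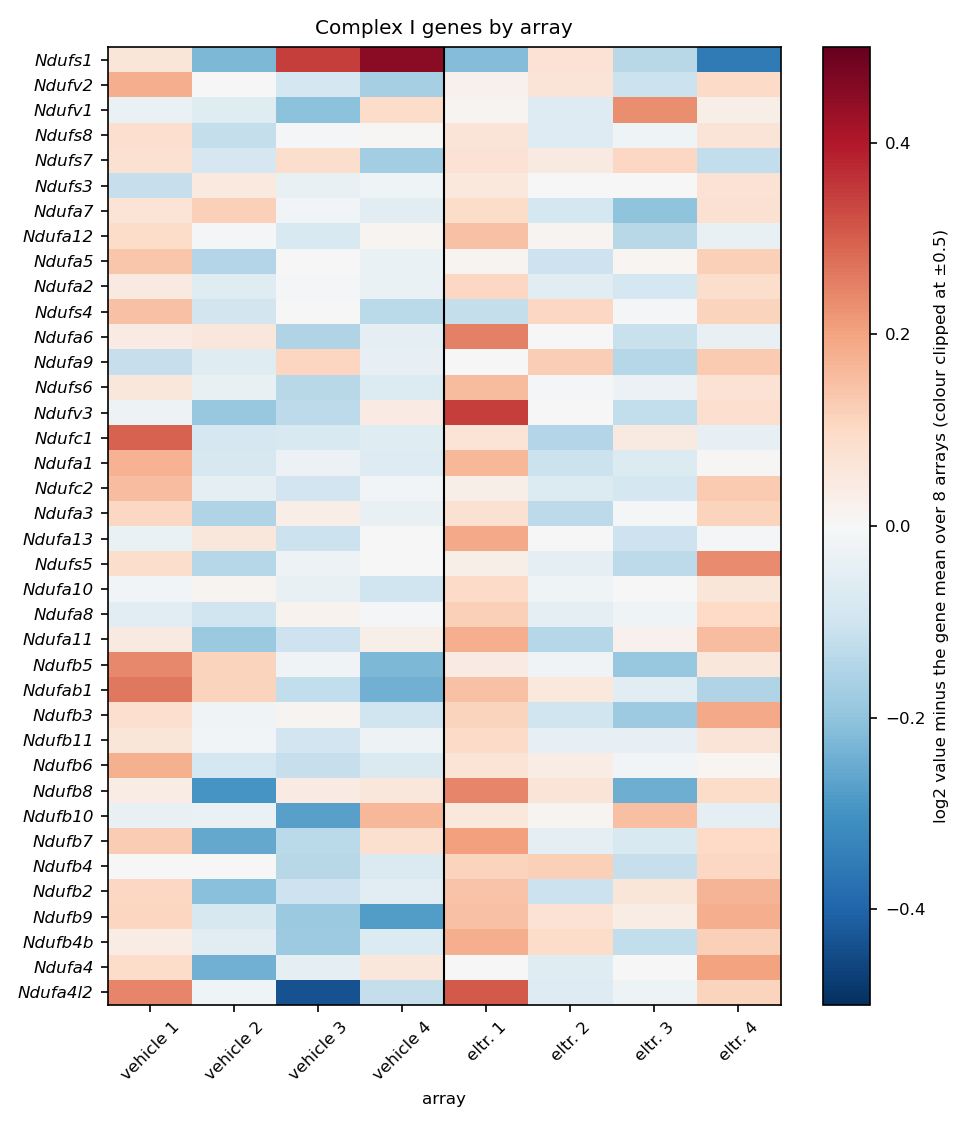
Log2 value minus the gene's mean over the 8 arrays (colour) for each of the 38 genes (rows, ordered by part of the enzyme) on each array (columns). Vehicle array 1 and eltrombopag arrays 1 and 4 are mostly red, with 29, 36 and 30 of 38 genes above their mean, and the row of Ndufs1 is red in vehicle arrays 3 and 4, where most genes lie below their mean.

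Most members had this order of arrays in common. In 27 of 38 (71.1%) the value lay on the same side of the gene's mean as in most other members on 6 or more of the 8 arrays, against 19.5% of all genes when set against the members' order of arrays. These members share the arrays and the normalization, so this is a description. Ndufa1, Ndufa2, Ndufa4l2, Ndufb11, Ndufc2, Ndufs5 and Ndufs6 did so on all 8 arrays. At the other end, Ndufs1, Ndufa13 and Ndufb10 did so on 3 arrays. Ndufs1 was above its mean in vehicle arrays 3 and 4 and below it in eltrombopag arrays 1 and 4, the reverse of most members there.

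The genes most like the members in function followed a similar order of arrays. For complexes II to V, 35 of 45 genes exceeded their mean in eltrombopag array 1, 30 in vehicle array 1 and 28 in eltrombopag array 4, while the other 5 arrays had 11 to 19. Mitochondrial ribosomal protein genes were above their mean in 65 of 76 cases in eltrombopag array 1 and 57 in eltrombopag array 4, but in 35 of 76 in vehicle array 1. Between groups, 37 of 45 genes of complexes II to V and 61 of 76 mitochondrial ribosomal protein genes were above 0, with medians of 0.044 and 0.064. The median of the complex I members, 0.049, lay between them, and no test was made of the differences between these groups of genes.

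**Figure D4:**
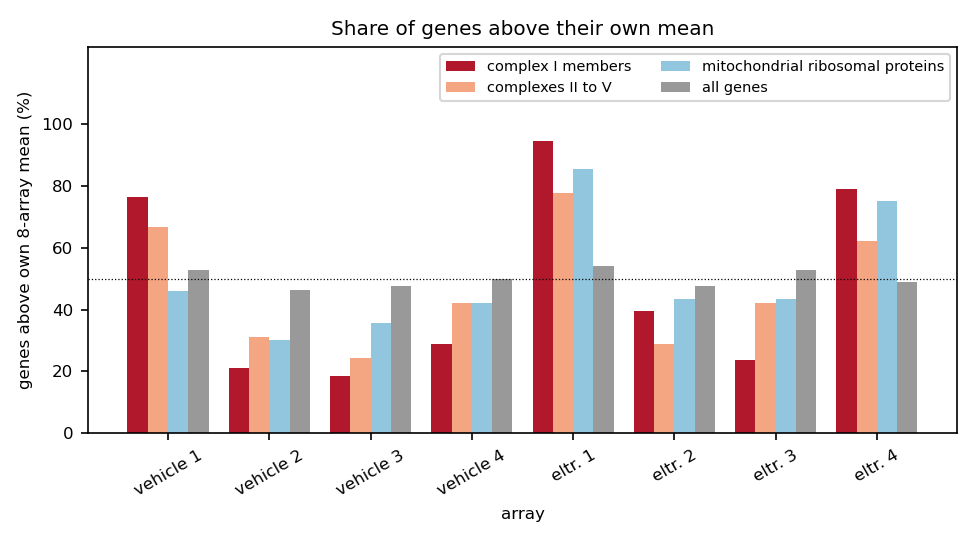
Share of genes (percent, vertical axis) whose log2 value lies above the gene's own mean over the 8 arrays, for each array and for 4 groups of genes; the dotted line marks 50%. All genes stay between 46.4% and 54.2%, while complex I genes reach 94.7% in eltrombopag array 1 and drop to 18.4% in vehicle array 3.

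By complex, all 9 measured genes of complex III and all 17 of complex V were above 0 (medians 0.049 and 0.044), as were 10 of 15 of complex IV (0.017) and 1 of 4 of complex II (-0.030), and 0 of these passed the test. The 2 with the smallest p over complexes II to V were Atp5k, a subunit of ATP synthase, with a log2 difference of 0.27 (SE 0.13), and Sdhb, the iron-sulfur subunit of succinate dehydrogenase, with 0.16 (SE 0.095). Among 18 measured assembly factors of complex I, 12 were above 0, with a median of 0.051, and 0 passed. Those with the smallest p were Ndufaf7, a methyltransferase that acts on a subunit of the complex, with 0.23 (SE 0.13), and Ndufaf2 with 0.17 (SE 0.10). Among 11 known regulators of mitochondrial biogenesis, 2 were above 0 and 9 below, with a median of -0.050, and 0 passed. Those with the smallest p were Gabpb1, a subunit of GABP, with -0.24 (SE 0.13), and the coactivator Ppargc1a with -0.14 (SE 0.096). The complex I subunits of mitochondrial DNA were not analysed here.

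The YY1 letters did not part the members by their difference between groups. The 7 members with the YY1 letters had differences from -0.036 to 0.094 with a median of 0.047, and 6 were above 0. The 27 others with a window ran from -0.059 to 0.15 with a median of 0.051, and 23 were above 0. These ranges overlapped almost fully, and the difference between them was not tested. Members with the NRF1 or the ETS letters were not set against the others in this way. With the NRF1 letters, the differences were 0.052 for Ndufa6, 0.075 for Ndufa8 and 0.11 for Ndufa11. With the ETS letters, they were 0.051 for Ndufb6, 0.090 for Ndufb7, 0.063 for Ndufs3 and 0.019 for Ndufs8.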

How the data were processed

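The authors deposited a table of log2 values for probe sets that they had normalized over the 8 arrays; RMA, oligo and limma are named per the submitters' processing notes, without versions. RMA sets the arrays to a common distribution, so differences in total RNA are removed. RNA input was about 10 ng, amplified from the 3′ end per the labels' protocols. Signal over background was not analysed here, and the number of arrays limits the precision.

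Of 22206 probe sets, 19572 had 1 symbol, 0 had several and 2634 were unnamed here, which gave 19505 genes. For 55 genes with several probe sets the highest mean stood for the gene. limma 3.58.1 in R 4.3.3 (lmFit, eBayes) tested eltrombopag against vehicle on all genes, two-sided, with Benjamini-Hochberg adjustment over all genes and a call at adjusted p under 0.05. It was tested on simulated data with planted differences larger than those of the members and with no effect of the array number. That check therefore says nothing about shifts as small as those of the members. In all pairs of arrays 0 values were equal.

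The members, lists and alternatives were chosen with earlier results of these data known. Array values were given for the core genes, the 5 most positive and 3 most negative differences, Ndufa4 and Ndufa4l2; those of Ndufa11 and Ndufb4 were added after their values were seen. The YY1, NRF1 and ETS letters were kept from a wider scan of promoter motifs after the shares of matches had been seen, the NRF1 element was shortened from a longer palindrome that fewer members held, and the 1.3-fold bound replaced a tighter one that fewer members met. Of the comparison lists, the 2 genes with the smallest p were named, and summed marker levels are log2 of summed linear values.

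Deviations from the group means correlated at 0.241, 0.294, 0.192 and 0.142 between arrays of the same number (-0.208 to 0.171 otherwise), so arrays of the same number were treated as pairs, on the strength of the data and not of the labels. The replicate block, other scalings, a filter on dim genes, array weights, a variance trend, other probe set rules and left-out arrays were the alternatives.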

Additional observations from a re-analysis of the deposited data

Results flagged for a closer look

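All 38 members were searched for an array that stood apart from the rest of its group of 4, in 76 groups in all. This marked 4 groups, and about 3.8 would be marked by chance (1 group in 20). Ndufb4 had 10.96 in eltrombopag array 3, while the remaining eltrombopag arrays had 11.18 to 11.19. Ndufb6 had 11.28 in vehicle array 1, while the remaining vehicle arrays had 10.99 to 11.03. Ndufc1 had 9.85 in the same array and 9.47 to 9.50 in the remaining ones. Ndufb8 had 8.50 in vehicle array 2 and 8.84 to 8.86 in the remaining ones. In each case most members lay on the same side of their own mean in that array.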

How the results depend on the processing

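The number of genes called was 0 in all 18 alternatives, over all genes and among the members. The members above 0 numbered 26 to 36 of 38 and their median lay between 0.030 and 0.077 over the fits that left out 1 array, with the ends given by leaving out eltrombopag array 1 and vehicle array 1 for the count, and vehicle arrays 2 and 1 for the median. With the replicate block the pairing left all differences as they were, called 0 members (0 at an unadjusted p under 0.05, smallest adjusted p 0.984) and changed no other call; the SE of Ndufb9 was 0.10 and that of Ndufs1 0.17. Of the 38 members, 16 kept their sign in every alternative that held them and 22 did not. With array weights 1 member, Ndufb9, had an unadjusted p under 0.05 (smallest adjusted p of the members 0.999 in limma). Within numbers 3 and 4 only, 1 member was higher (Ndufb9) and 1 lower (Ndufs1) at that threshold, where 853 of all 19505 genes passed it. There was 1 higher, again Ndufb9, without vehicle array 1 (827 of all genes). Without vehicle array 2 and without eltrombopag array 2 there was 1 lower each, Ndufs1 both times (682 and 691 of all genes). Its differences there were -0.44 (SE 0.14) and -0.39 (SE 0.16). The filter on dim genes left out Ndufa4l2. The cause of the changes of sign was not tested. Signs turned with array weights for Ndufa12 (0.00078) and Ndufab1 (0.031), with equal medians for Ndufa1 (-0.0097), Ndufb3 (-0.00057) and Ndufc2 (-0.0074), and with quantile normalization for Ndufa1 (-0.0020) and Ndufab1 (0.0032). In numbers 1 and 2 only they turned for Ndufa1 (-0.017), Ndufa12 (0.038), Ndufa3 (-0.0042), Ndufa5 (-0.042), Ndufb3 (-0.027), Ndufc2 (-0.072), Ndufs1 (0.011), Ndufs4 (-0.037) and Ndufv2 (-0.049). In numbers 3 and 4 only they turned for Ndufa13 (-0.0044), Ndufa9 (-0.040), Ndufab1 (0.078), Ndufb5 (0.054), Ndufb8 (-0.12) and Ndufc1 (0.070). Without both arrays numbered 3 they turned for Ndufa12 (0.0082), Ndufb10 (-0.026) and Ndufv1 (-0.0068). Leaving out 1 array in turn gave ranges across 0 for 17 members: Ndufa1 (-0.056 to 0.058), Ndufa12 (-0.060 to 0.035), Ndufa13 (-0.016 to 0.082), Ndufa2 (-0.0018 to 0.062), Ndufa3 (-0.022 to 0.072), Ndufa5 (-0.025 to 0.070), Ndufa6 (-0.022 to 0.098), Ndufab1 (-0.086 to 0.082), Ndufb3 (-0.053 to 0.072), Ndufb5 (-0.14 to 0.016), Ndufb8 (-0.0060 to 0.17), Ndufc1 (-0.071 to 0.056), Ndufc2 (-0.040 to 0.054), Ndufs5 (-0.029 to 0.093), Ndufs7 (-0.0027 to 0.097), Ndufs8 (-0.018 to 0.050) and Ndufv2 (-0.013 to 0.10). In 17 more it moved the difference by over 1.5 times on 1 side of 0: Ndufa11 (0.065 to 0.17), Ndufa4 (0.00022 to 0.11), Ndufa4l2 (0.049 to 0.27), Ndufa7 (-0.0995 to -0.0028), Ndufa8 (0.047 to 0.10), Ndufa9 (0.021 to 0.11), Ndufb10 (0.0099 to 0.16), Ndufb11 (0.013 to 0.065), Ndufb2 (0.084 to 0.19), Ndufb4 (0.079 to 0.16), Ndufb6 (0.020 to 0.12), Ndufb7 (0.021 to 0.15), Ndufs3 (0.034 to 0.090), Ndufs4 (0.0021 to 0.096), Ndufs6 (0.057 to 0.13), Ndufv1 (0.044 to 0.15) and Ndufv3 (0.063 to 0.22).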
